A study of Sus scrofa with 12 samples.

Results

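The miR-181 family was followed in pig (Sus scrofa) liver, as the 4 table entries whose names begin with ssc-miR-181a, b, c or d together with the entry miR-181-y, 5 of the 774 entries of the table. The family was selected on the cold difference of miR-181-y in these same libraries, and the other members were chosen by name. For this reason every comparison of cold with normal temperature is a description, without a test. That choice did not use the breed comparisons or the test of whether the cold difference varied between breeds. Earlier results of these data were known when the members were chosen. Small RNA was sequenced from 12 livers in 4 groups of 3: Bama pigs at 23 ± 2 °C, Bama pigs at -15 ± 2 °C, Hezuo pigs at 23 ± 2 °C and Hezuo pigs at -15 ± 2 °C, all labelled day 15. The 2 temperatures are called normal and cold, and each breed has its normal group as control. The aim was to find RNAs tied to the cold resistance of the Hezuo breed. Sex and age are not given. The labels use pig numbers 1 to 3 at both temperatures without saying whether a number is the same animal. Libraries were treated as separate animals, so p-values measure the spread between libraries.

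A microRNA is cut from a hairpin precursor as a short duplex, one strand of which is kept by an Argonaute protein and guides it to mRNAs, while the partner strand is mostly degraded. Target choice rests largely on the seed, bases 2 to 8 of the mature strand. The miR-181 family is best known from lymphocytes. In mouse T cells miR-181a raises the sensitivity of the T cell receptor by lowering phosphatases that dampen its signal, in mouse endothelium miR-181b lowers NF-κB signalling, and in rat heart miR-181c was found in mitochondria. In the pig RefSeq annotation (Sscrofa11.1), which served for names and gene order only, the family has 6 genes that lie as neighbouring pairs. MIR181A-2 lies beside MIR181B-2, and both lie within NR6A1, a nuclear receptor gene. MIR181B-1 and MIR181A-1 are neighbours within LOC110255652, and the gene before them is PTPRC, which encodes the leukocyte surface phosphatase CD45. MIR181D and MIR181C are neighbours, followed by MIR23A. The table has 1 entry each for miR-181a and miR-181b, so its counts do not tell the A-1 gene from the A-2 gene or the B-1 gene from the B-2 gene.

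The sequences of the table are shown because the members differ by few bases and because miR-181-y carries another seed. Capitals mark the seed, and letters are DNA letters as deposited, 5′ to 3′. The prefix ssc, for Sus scrofa, is left out of the names after this list.
ssc-miR-181a: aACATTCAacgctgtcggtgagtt
ssc-miR-181b: aACATTCAttgctgtcggtgggtt
ssc-miR-181d-5p: aACATTCAttgttgtcggtgggtt
ssc-miR-181c: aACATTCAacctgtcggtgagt
miR-181-y: aCCACCGAccgttgactgtacc
Counted from 1 at the 5′ end, miR-181b differs from miR-181a by A9T, C10T and A21G, and miR-181d-5p differs from miR-181b by C12T alone. MiR-181c shares its first 10 bases with miR-181a, equals it after 1 base is deleted, and ends 1 base earlier. The seed ACATTCA occurred in 5 of the 774 entries: these 4 and miR-181-x, a 26-nt form of miR-181a with 2 further bases at its 3′ end, which lies outside the family as defined here. The seed of miR-181-y occurred in 1 entry, miR-181-y itself.

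The letter y marks the 3p arm in this table as far as its sequences allow a check. Of the 128 conserved entries ending in y, 28 shared their first 15 bases with a porcine entry of the same number that names its arm, and all 28 of these matched a 3p arm. Of the 41 such matches among entries ending in x, all 41 were to a 5p arm. Folded against each 5p member with RNAduplex, miR-181-y paired over most of its length: 16 base pairs with miR-181a at -22.1 kcal/mol, 16 with miR-181b at -21.0, 16 with miR-181d-5p at -20.2 and 15 with miR-181c at -20.2. These are predicted pairings of mature sequences, and the hairpin that gives miR-181-y was not assigned.

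MiR-181a held most of the family's counts in every library. The 5 members together had 2265 to 5400 counts in a library, out of 7184168 to 10384074 listed. MiR-181a made up 74.9% to 82.8% of the family, miR-181b 7.55% to 12.2%, miR-181-y 4.76% to 10.5%, miR-181d-5p 1.19% to 2.61% and miR-181c 0.0529% to 0.428%. Levels are given as CPM, counts scaled to a library size adjusted by TMM (trimmed mean of M-values), and each count is a whole small RNA, so no length enters. The mean over the libraries was 324.9 CPM for miR-181a, 37.1 for miR-181b, 30.9 for miR-181-y, 6.90 for miR-181d-5p and 0.821 for miR-181c. By this mean miR-181a ranked 57 in the table, miR-181-y 152 and miR-181c 469. The order of the neighbours miR-181b and miR-181-y was not the same in every group. MiR-181b lay above miR-181-y without overlap in both Bama groups, while in both Hezuo groups the ranges of the pair overlapped.

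The tissue label was met by the hepatocyte microRNA miR-122, whose 4 entries summed to 403829 to 714005 CPM per library. TMM factors ran from 0.816 in Hezuo normal 3 to 1.10, and scaling to the library totals implied by the deposited TPM columns moved the median of all entries by 0.18 log2 units in the cold difference of Hezuo and by -0.12 in the breed difference at normal temperature. In these bulk livers, fewer cells of a type and less RNA per cell cannot be told apart. A test across entries was run with edgeR on all 12 libraries and the 460 entries that passed its expression filter, and an adjusted p below 0.05 is a call. Of the members, 4 passed the filter and miR-181c did not.

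MiR-181-y, the 3p strand, was lower under cold in both breeds. In Bama it stood at 27.7, 35.8 and 38.2 CPM in the normal livers and at 20.5, 15.9 and 17.6 CPM in the cold livers. In Hezuo it stood at 39.5, 44.9 and 51.8 CPM in the normal livers and at 26.3, 24.4 and 28.7 CPM in the cold livers. Every cold liver lay below every normal liver of its breed, which was so for 1.52% of the 460 tested entries in both breeds at once. The group means were 33.9 ± 5.53 and 18.0 ± 2.34 CPM (SD, n = 3) in Bama and 45.4 ± 6.16 and 26.5 ± 2.14 CPM in Hezuo. The fitted difference was -0.91 log2 units (SE 0.18) in Bama, -0.78 (SE 0.18) in Hezuo and -0.84 (SE 0.13) averaged over breeds. These values chose the family, so the place of miR-181-y among the 2.17% of entries that edgeR called in that average was fixed by the choice and is no result.

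**Figure D1:**
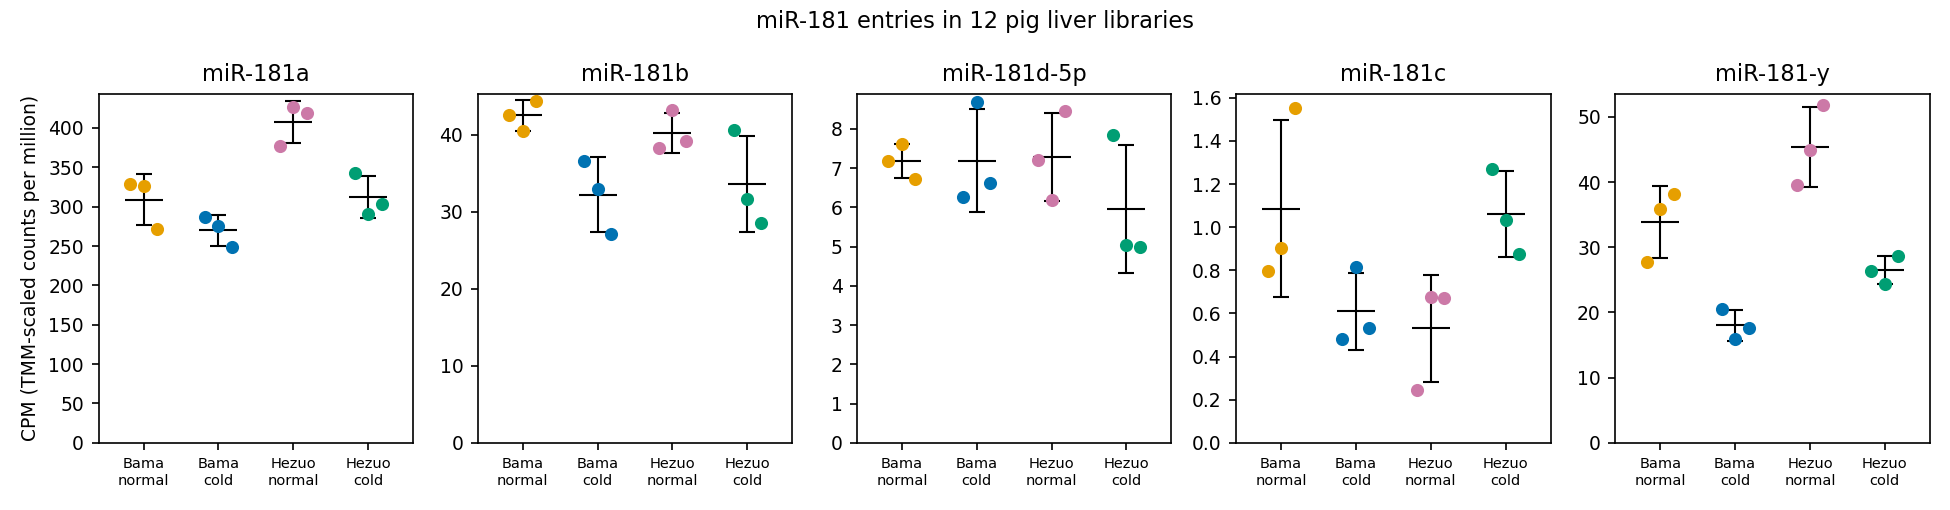
CPM of the 5 miR-181 entries (vertical axes, each from 0 and on its own scale) in the 4 groups of 3 livers; coloured points are libraries, black bars the mean ± SD. For miR-181-y the cold livers lie below the normal livers in each breed (15.9 to 20.5 against 27.7 to 38.2 CPM in Bama), and miR-181c stays at or below 1.55 CPM.

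MiR-181a, the main 5p strand, was lower under cold by a smaller amount. In Bama it stood at 328.5, 326.7 and 272.0 CPM in the normal livers and at 286.8, 275.0 and 248.7 CPM in the cold livers. In Hezuo it stood at 377.4, 427.2 and 418.8 CPM in the normal livers and at 342.4, 291.2 and 303.9 CPM in the cold livers. With TMM the groups overlapped in Bama, through the normal liver at 272.0 CPM, and did not overlap in Hezuo. In Hezuo, 8.04% of all tested entries had every cold liver below every normal liver. By deposited TPM the Hezuo groups overlapped, with Hezuo normal 3 at 297.1 and Hezuo cold 1 at 327.2. The fitted difference was -0.19 (SE 0.12) in Bama, -0.38 (SE 0.12) in Hezuo and -0.29 (SE 0.08) averaged over breeds. Under the alternative settings the Hezuo difference ran from -0.39 to -0.20. The 26-nt form miR-181-x, at 1.86 to 4.93 CPM over the libraries, had an averaged difference of -0.50 (SE 0.25).

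MiR-181b showed the converse overlap. In Bama it stood at 42.6, 40.5 and 44.4 CPM in the normal livers and at 36.6, 33.0 and 27.1 CPM in the cold livers. The groups did not overlap, and 7.83% of all tested entries were lower under cold in this way in Bama. In Hezuo it stood at 38.3, 43.2 and 39.2 CPM in the normal livers and at 40.5, 31.7 and 28.6 CPM in the cold livers, and the groups overlapped through Hezuo cold 1. Its fitted difference was -0.40 (SE 0.17) in Bama, -0.26 (SE 0.17) in Hezuo and -0.33 (SE 0.12) averaged over breeds.

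MiR-181d-5p, which shares its gene pair with miR-181c, overlapped between temperatures in both breeds. It ranged from 6.74 to 7.61 CPM in the normal and 6.26 to 8.69 in the cold livers of Bama, and from 6.19 to 8.45 and 4.99 to 7.86 in those of Hezuo. Its fitted difference was 0.00026 (SE 0.26) in Bama and -0.28 (SE 0.25) in Hezuo, and the sign in Bama was negative under other settings. Its averaged difference was -0.14 (SE 0.18). Over all 460 tested entries the averaged cold difference had a median of -0.03, and 252 were negative.

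**Figure D2:**
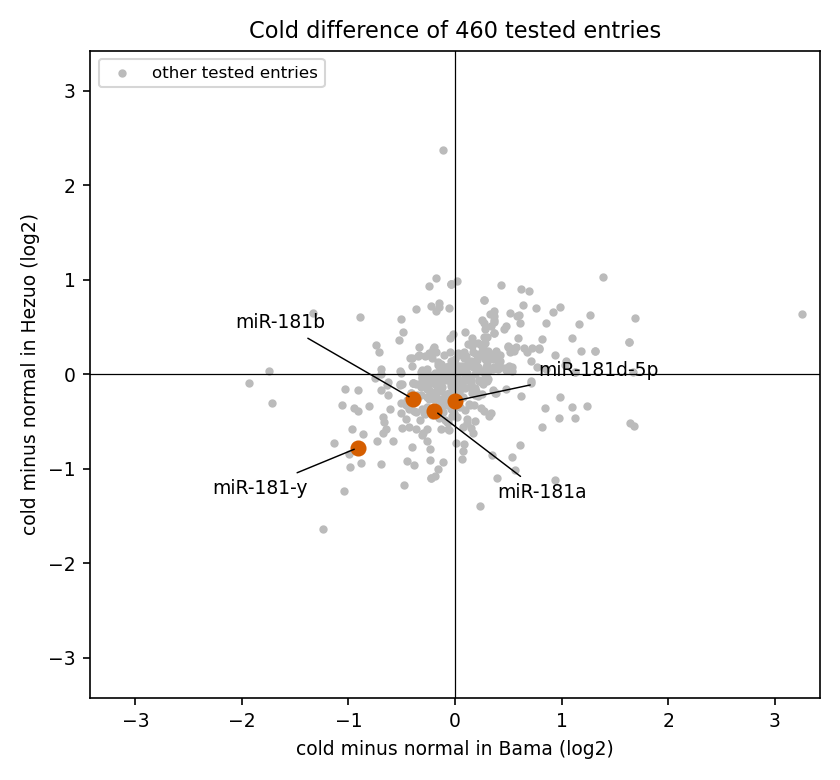
Cold minus normal log2 difference in Bama (horizontal) and Hezuo (vertical) for the 460 tested entries; grey points are other entries, orange points the 4 tested miR-181 entries. MiR-181-y lies at -0.91 and -0.78, farther from 0 on both axes than miR-181a at -0.19 and -0.38.

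MiR-181c was counted too rarely for the test. In Bama its counts were 6, 7 and 12 in the normal livers and 5, 6 and 4 in the cold livers, and in Hezuo they were 2, 7 and 5 and then 11, 8 and 7. In CPM the Hezuo cold livers (0.873 to 1.27) lay above the Hezuo normal livers (0.245 to 0.677), as they did in 7.39% of the 460 tested entries, while in Bama the cold livers (0.482 to 0.814) and the normal livers (0.798 to 1.55) overlapped. Within groups its counts scattered no more than counting error gives, with a chi-squared per degree of freedom of 0.724. The value was 17.8 for miR-181a, 4.50 for miR-181b, 4.35 for miR-181-y and 1.86 for miR-181d-5p. It grows with the count, so it does not rank the members by relative spread. As a percentage of the mean CPM, the SD within a group was 6.53% to 10.4% for miR-181a and 18.9% to 46.7% for miR-181c. In the edgeR fit without a filter, the cold response of miR-181c differed between breeds by 1.86 log2 units (SE 0.85, adjusted p = 0.966), which did not pass.

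Whether the cold difference of the tested members varied between breeds was tested as Hezuo minus Bama. The estimates were 0.13 log2 units for miR-181-y (95% interval -0.42 to 0.68), -0.19 for miR-181a (-0.54 to 0.16), 0.14 for miR-181b (-0.39 to 0.66) and -0.28 for miR-181d-5p (-1.04 to 0.48). By edgeR the adjusted p was 0.961 for miR-181a and 0.998 for the other three. Of all entries, 0 of 460 passed by edgeR (0%), 25 had an unadjusted p below 0.05, and 0 passed by DESeq2.

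Between the breeds, miR-181a and miR-181-y were higher in Hezuo, and miR-181b and miR-181d-5p did not pass. In the edgeR fit averaged over temperatures, miR-181-y was higher by 0.49 log2 units (SE 0.13, 1.40-fold, adjusted p = 0.0243) and miR-181a by 0.31 (SE 0.08, 1.24-fold, adjusted p = 0.027). With TMM, both members had every Hezuo liver above every Bama liver at the same temperature, 3 above 3 at normal temperature and 3 above 3 under cold. Among all tested entries, Hezuo lay above Bama in this way in 13.7% at normal temperature and 10.4% under cold. By deposited TPM the breeds overlapped for miR-181a under cold (Hezuo cold 2 at 240.6, Bama cold 1 at 260.8). They also overlapped for miR-181-y at normal temperature (Hezuo normal 1 at 33.7, Bama normal 3 at 34.5). MiR-181b differed by -0.01 (95% interval -0.27 to 0.25, adjusted p = 0.98 by edgeR) and miR-181d-5p by -0.12 (-0.50 to 0.26, adjusted p = 0.723). Of the 4 tested members 2 were called higher and 0 lower, where 6.74% of all entries were called higher and 4.35% lower (11.1% in all).

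The calls of miR-181a and miR-181-y lay near the threshold. With library totals in place of TMM neither passed by edgeR, at 0.27 (adjusted p = 0.147) for miR-181a and 0.44 (adjusted p = 0.0747) for miR-181-y. MiR-181a did not pass without Bama normal 1 (0.30, adjusted p = 0.0608), Bama normal 3 (0.26, 0.0617), Bama cold 2 (0.29, 0.0657), Bama cold 3 (0.27, 0.0773), Hezuo normal 3 (0.27, 0.0807), Hezuo cold 1 (0.25, 0.0749) or Hezuo cold 2 (0.28, 0.0617). MiR-181-y did not pass without Bama normal 1 (0.39, adjusted p = 0.104), Bama cold 2 (0.42, 0.0936), Bama cold 3 (0.46, 0.0743), Hezuo normal 3 (0.41, 0.106), Hezuo cold 1 (0.46, 0.0731) or Hezuo cold 3 (0.44, 0.0985). The estimates stayed positive in each of these fits.

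Taken at 1 temperature, the breed difference of no member passed. At normal temperature edgeR gave 0.40 for miR-181a (95% interval 0.15 to 0.65, adjusted p = 0.0577) and 0.42 for miR-181-y (0.03 to 0.81, adjusted p = 0.219), where 3.7% of entries were called. Under cold it gave 0.21 for miR-181a (-0.04 to 0.46, adjusted p = 0.417) and 0.55 for miR-181-y (0.16 to 0.95, adjusted p = 0.142), where 4.35% of entries were called. At normal temperature miR-181b was at -0.08 (adjusted p = 0.848) and miR-181d-5p at 0.02 (adjusted p = 0.981), and under cold they were at 0.06 (adjusted p = 0.934) and -0.26 (adjusted p = 0.726). By edgeR, an unadjusted p below 0.05 was reached by 93 entries at normal temperature and 69 under cold.

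**Figure D3:**
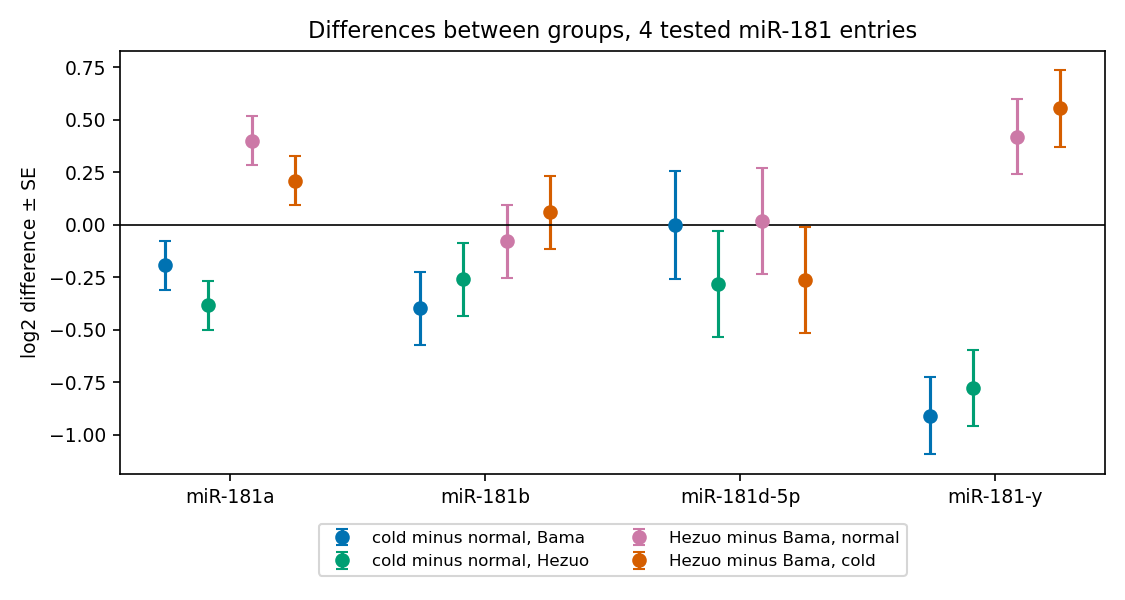
Fitted log2 differences (points) with 1 standard error (bars) for the 4 miR-181 entries that passed the expression filter, as cold minus normal in each breed and Hezuo minus Bama at each temperature. MiR-181a and miR-181-y lie below 0 for both cold differences and above 0 for both breed differences, while the breed differences of miR-181b lie at -0.08 and 0.06.

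Relative to miR-181a, miR-181b and miR-181d-5p were lower in Hezuo, as were most entries of the table. Such a ratio is taken within a library and needs no scaling between libraries, but it moves with miR-181a, which was itself higher in Hezuo. Of the other 459 tested entries, 76.9% had a lower ratio to miR-181a in Hezuo, 33.3% did so without overlap at normal temperature, and 19.8% with an exact permutation p of 0.01 or less. In Bama normal, miR-181b was counted at 12.96%, 12.39% and 16.33% of miR-181a, and in Hezuo normal at 10.14%, 10.12% and 9.35%. Under cold the values were 12.77%, 11.99% and 10.89% in Bama and 11.84%, 10.87% and 9.40% in Hezuo. The breeds did not overlap at normal temperature and overlapped under cold. Averaged over temperatures the log2 ratio was lower in Hezuo by -0.32 (exact two-sided permutation of breed within temperature p = 0.01, adjusted 0.02 over 4 ratios). The difference was -0.48 at normal temperature and -0.15 under cold. A ratio at least as low, averaged over temperatures, was found in 48.8% of the 459 entries.

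The ratio of miR-181d-5p to miR-181a was also lower in Hezuo. At normal temperature it was counted at 2.19% to 2.48% of miR-181a in Bama and 1.45% to 2.02% in Hezuo, and under cold at 2.18% to 3.16% and 1.64% to 2.29%. The breeds again did not overlap at normal temperature and overlapped under cold. The log2 ratio was lower in Hezuo by -0.44 (exact permutation p = 0.01, adjusted 0.02), at -0.39 at normal temperature and -0.50 under cold, and 33.1% of the 459 entries were at least as low. Neither ratio therefore sets these members apart from the table. Without Bama normal 2 the estimate was -0.44 and its adjusted exact permutation p was 0.05, which does not pass. The 4 ratios share the counts of miR-181a and are not separate evidence. The smallest p that the 400 arrangements can give is 0.005.

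The ratio of the 3p strand to miR-181a was not found to differ between breeds. MiR-181-y was counted at 8.42%, 10.97% and 14.05% of miR-181a in Bama normal, and at 10.46%, 10.50% and 12.36% in Hezuo normal. Under cold it was counted at 7.16%, 5.77% and 7.10% in Bama and at 7.69%, 8.39% and 9.44% in Hezuo. The cold livers lay below the normal livers of their breed in both breeds. The mean log2 ratio was lower under cold by -0.71 in Bama and -0.38 in Hezuo. This ratio holds the miR-181-y counts whose cold fall chose the family, so its cold difference is a description. How many other entries had a ratio separated by cold in this way was not counted. The breed difference was 0.19 log2 units (exact permutation p = 0.225, adjusted 0.3), while without Bama normal 3 it was 0.28 (adjusted exact permutation p = 0.0333). For miR-181c, with 2 to 12 counts per library, the breed difference was -0.43 (exact permutation p = 0.365, adjusted 0.365), at -1.42 at normal temperature and 0.55 under cold.

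**Figure D4:**
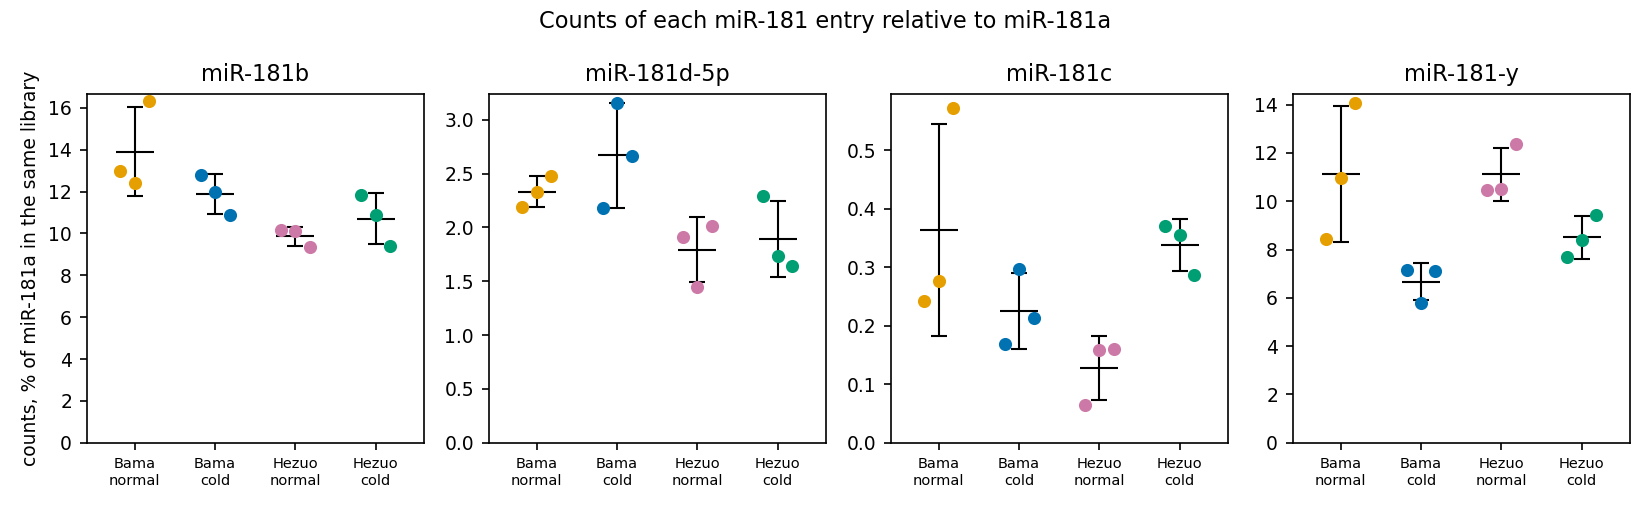
Counts of 4 miR-181 entries as a percentage of the miR-181a counts of the same library (vertical axes from 0, separate scales) in the 4 groups; points are libraries, black bars the mean ± SD of 3. MiR-181b lies at 9.35% to 10.1% in Hezuo normal and 12.4% to 16.3% in Bama normal. MiR-181-y, whose cold fall chose the family, lies lower under cold in both breeds.

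The correlation among members was uneven. Over the 12 libraries the Pearson correlation of log2 CPM was 0.79 between miR-181a and miR-181-y, 0.56 between miR-181a and miR-181b, 0.63 between miR-181b and miR-181-y and 0.08 between miR-181d-5p and miR-181-y. After each group's mean was removed, miR-181a and miR-181-y stood at -0.01 and miR-181a and miR-181b at 0.55. These are descriptions over 12 libraries that share the 4 groups and the scaling.

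The entries most like miR-181-y and miR-181a over the libraries were other miRNAs that were lower under cold and higher in Hezuo. The correlations keep the group differences, so entries that share these differences were bound to rank high. The cold fall of miR-181-y also chose the family, so this likeness is a description and no result. For miR-181-y the entries were miR-192-z, a form of the liver miRNA miR-192 (r = 0.90), miR-92-y (r = 0.87) and let-7c (r = 0.86). For miR-181a they were miR-192-z (r = 0.88), miR-192-x (r = 0.84) and miR-215-z (r = 0.83), the last a relative of miR-192. With group means removed these correlations were 0.39, 0.45 and 0.00 for miR-181-y and 0.30, 0.38 and 0.44 for miR-181a, all over 12 libraries. For miR-181b the closest were miR-199-x (r = 0.80), miR-504 (r = 0.74) and miR-199a-5p (r = 0.73), and for miR-181d-5p they were miR-10-x (r = 0.85), miR-199a-5p (r = 0.81) and a predicted miRNA (r = 0.77) with a mean of 0.740 CPM. MiR-199a is known from stellate cells and fibroblasts. With group means removed, the correlations in the same order were 0.70, 0.50 and 0.81 for miR-181b. For miR-181d-5p they were 0.91, 0.78 and 0.81.

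Other miRNAs of lymphocytes were set beside the family because it is best known from those cells. The list held miR-150, miR-155, miR-142, miR-146a, miR-146b and members of the miR-17/92 cluster, in 21 entries of which 17 passed the filter. In the breed difference averaged over temperatures edgeR called 0 of the 17, against 51 of all 460 entries. An unadjusted p below 0.05 was reached by 6 of the 17 and 119 of the 460, and DESeq2 called 3 of the 17 and 70 of the 460. Of the 17, 8 were negative, with a median of 0.09. In the cold difference averaged over breeds 14 of 17 were negative with a median of -0.20, against 252 of the 460 with a median of -0.03. There edgeR called 0 of the 17 and DESeq2 0. An unadjusted p below 0.05 by edgeR was reached by 1 of the 17 and 82 of the 460. The most abundant of the list were miR-92a at a mean of 427.3 CPM, with a breed difference of 0.13, and miR-142-3p, a marker of blood cells, at 346.6 CPM, with -0.22. MiR-142-5p stood at 250.5 CPM with -0.46 and miR-20a-5p at 166.9 CPM with 0.29, and none of the 4 passed by edgeR.

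Summed markers of cell types overlapped between the breeds in most lists. The 8 entries listed as lymphoid (miR-150, miR-155 and miR-142) summed to 554.3 to 848.2 CPM in normal and 604.5 to 862.6 in cold livers of Bama. In Hezuo they summed to 477.3 to 744.8 and 509.0 to 680.5 CPM. MiR-142, a marker of blood cells, held most of these sums, so they are not particular to lymphoid cells. Mean levels were 346.6 CPM for miR-142-3p and 250.5 for miR-142-5p, against 23.4 for miR-155-5p and 20.7 for miR-150. The 4 entries of endothelial miR-126 summed to 11263 to 12683, 12532 to 15516, 11405 to 12893 and 12661 to 13859 CPM in the same order of groups. The 3 entries of myeloid miR-223 summed to 4.53 to 16.7 CPM over all libraries. The 9 erythroid entries of miR-451, miR-144 and miR-486 summed to 440.2 to 995.5 and 537.9 to 1343 CPM in Bama, and to 632.2 to 1892 and 670.4 to 2449 CPM in Hezuo, normal before cold. No list had an entry at 0 in all libraries.

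Some lists had entries mostly of the same sign, or sums that did not overlap between groups. In the breed difference averaged over temperatures, 5 erythroid entries passed the filter and 0 of them were negative, with a median of 0.68, the direction of miR-181a and miR-181-y. Of these 5, edgeR called 0, DESeq2 called 2 and 3 had an unadjusted p below 0.05. The hepatocyte entry miR-122-x was higher in Hezuo by 0.33 (edgeR adjusted p = 0.0349), while miR-122-5p was at 0.02 (adjusted p = 0.928). The 19 entries of miR-143, miR-145, miR-199 and miR-214, known from stellate cells, fibroblasts and smooth muscle, were summed. The sum was lower in Hezuo normal (18396 to 21287 CPM) than in Bama normal (22177 to 30176 CPM) without overlap. The share of all entries lower in Hezuo in this way is not given here, so this separation is a description only. Under cold the sums of the breeds overlapped (20856 to 28647 in Bama, 18316 to 23082 in Hezuo). MiR-143-3p alone had a mean of 18473 CPM. At normal temperature 12 of the 16 tested entries were negative, against 210 of all 460, and edgeR called 0 of the 16. The sum of the 4 entries of hepatocyte miR-122 was lower in Hezuo cold (403829 to 519989 CPM) than in Hezuo normal (536238 to 714005) without overlap. Of all tested entries, 8.04% were lower under cold in this way in Hezuo. In Bama the sums of cold (463696 to 526336) and normal (501609 to 549071) overlapped. MiR-122-5p alone had a mean of 507850 CPM. In the cold difference of Hezuo, 3 of the 4 entries were negative, against 253 of all 460, and edgeR called 0 of the 4. The part of any of these in the differences of the miR-181 members was not tested.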

How the data were processed

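Per the labels' protocols, RNA of 18 to 30 nt was selected from TRIzol extracts of 12 livers for small RNA libraries. The authors deposited raw tag counts per entry and TPM values, per the file headers. Aligner, database, build and filters were not given in the sources used here. Library totals came from the TPM columns, and a few deposited TPM values are printed, but none were tested. Of the table's lines, 2 had been emptied before use. How tags were divided among near-identical entries is not given, so miR-181b and miR-181d-5p, 1 base apart, are uncertain individually.

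Counts were tested with edgeR 4.0.16 (R 4.3.3): 1 coefficient per group, TMM, filterByExpr, robust quasi-likelihood F tests, Benjamini-Hochberg adjustment over 460 entries, 7 contrasts. Standard errors derive from the F statistics. The procedure was tested on simulated data. Ratios used 0.5 added counts, with the same ratio for every other tested entry as background (added after the data were seen), and duplexes RNAduplex 2.7.2. The members and lists were chosen with earlier results of these data known. Named are all members, the 3 tested entries most correlated with each member that do not share its first 16 bases, and the most abundant entries of a list. Alternatives were library totals, DESeq2 size factors, DESeq2 1.42.0, no filter, entries sharing their first 16 bases summed, a block by pig number and leaving out each library.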

Additional observations from a re-analysis of the deposited data

How the results depend on the processing

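MiR-181-y was negative in the cold difference averaged over breeds under all 6 alternatives (-0.87 to -0.74) and without each library (-0.90 to -0.76). In Bama it was at -0.97 to -0.90 under the alternatives. Its cold fall in these same libraries chose the family, so the sign under these settings was largely fixed and is no result. The difference of miR-181d-5p in Bama, near 0, turned to -0.0049 with DESeq2 size factors, -0.0076 with DESeq2, -0.019 without a filter, -0.047 with the first 16 bases summed and -0.0087 with the block, and ranged from -0.13 to 0.10 without 1 library. Its breed difference at normal temperature turned to -0.12 with library totals, -0.011 with DESeq2 size factors, -0.014 with DESeq2 and -0.0057 without a filter (-0.13 to 0.16 without 1 library). The breed difference of miR-181b averaged over temperatures turned to 0.0502 with the first 16 bases summed (-0.11 to 0.033 without 1 library) and ranged from -0.11 to 0.16 under cold without 1 library. The cause was not tested.

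Counts of all called entries moved more. For cold averaged over breeds (10) they were 24 with DESeq2, 6 without a filter and 5 with the first 16 bases summed (5 to 12 without 1 library). In Bama (5) they were 1 with library totals, 21 with DESeq2, 3 with the first 16 bases summed and 3 with the block (0 to 8 without 1 library). In Hezuo (0 by edgeR, 43 at an unadjusted p below 0.05, 0 by DESeq2) the block gave 4. For the breeds at normal temperature (17) they were 11 with library totals, 38 with DESeq2 and 11 with the block (4 to 24 without 1 library), and under cold (20) 13 with the first 16 bases summed (7 to 21 without 1 library). The log2 ratio to miR-181a ranged without 1 library from -0.36 to -0.26 for miR-181b, -0.52 to -0.37 for miR-181d-5p and 0.0924 to 0.277 for miR-181-y.

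The block used the pig number within breed for cold and across breeds otherwise. Libraries of 1 number correlated at 0.00767 to 0.159 in their deviations from group means, and those of different numbers at -0.138 to 0.0670. In 3 of 6 cases the best match of a normal library was its own number. With 3 libraries per group this check cannot decide whether a number is the same animal. The labels do not say so, and the numbers were not taken as pairs. The cold difference of miR-181-y in Bama is among the values that chose the family, so it is given as an estimate without a test. It was -0.90 with the block, -0.90 with library totals and -1.05 to -0.78 over the 12 fits without 1 library. Its place against the edgeR threshold changed with the setting and with the library left out, and is no result.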
